A study of Sus scrofa with 9 samples.

Results

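Of the 3071 circular RNAs (circRNAs) counted in porcine MII oocytes, pronuclear (PN) embryos and mature sperm, 94 from 92 host genes were at 0 in every MII oocyte library, had at least 1 count in a PN embryo library and at least 1 count in a sperm library, and were not among the 10 circRNAs that the paper listed as derived from sperm. Of those 10, 9 met the same count limits, and they are used here only for comparison. The 94 were chosen by these measured counts, so their absence from oocytes and their presence in embryos and sperm are the selection and not a result. The account below describes their host genes, how many counts stood behind their presence in embryos and how high they ranked in sperm.

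Each group was untreated and had 3 libraries, 9 in all. MII oocytes are eggs arrested in the second meiotic division and were pooled after removal of the cumulus cells, PN embryos are 1-cell embryos that were pooled after in vitro fertilization (IVF), and sperm were purified from fresh semen. The methods name Large White boars as the source of the sequenced sperm and Landrace boars as the source of semen for IVF, so the embryos and the sperm libraries need not share a sire. The labels do not say which libraries came from separate collections, and p-values then measure only the spread between these libraries.

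A circRNA arises when the splicing machinery joins the downstream end of an exon to an upstream splice site, which closes the RNA into a loop without free ends. Loops are poor substrates for exonucleases and can outlast the linear transcripts of the same gene. Mature sperm carry RNA left from spermatogenesis but hardly transcribe, and a sperm that fuses with an egg brings a very small volume of cytoplasm into a large one. An RNA seen in embryos and sperm but not in eggs is therefore a candidate for delivery at fertilization, and the screen used here addresses that question.

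Sperm replicates 1 and 3 held the same circRNA count for each circRNA, so they were treated as 1 sample and sperm has n = 2 for circRNAs. Total circRNA counts were 24217, 24002 and 22809 in MII oocytes, 23056, 26200 and 24503 in PN embryos, and 155731 and 167851 in the distinct sperm libraries. An upper limit of 3 counts for a circRNA listed at 0 corresponds to a share of 0.0124% to 0.0132% of an MII oocyte library. In RNA from whole cell pools, fewer cells of a type and less RNA per cell cannot be told apart. Among 8 marker genes of sperm, ZPBP and TEKT3 hosted a circRNA, and each hosted a member. Of 8 oocyte marker genes, ZP2, ZP3 and NLRP5 hosted 3 circRNAs, none of which was above 0 in sperm. Only 1 of the 3 was above 0 in MII oocytes, and 2 were above 0 in PN embryos. Of 4 cumulus cell markers, CYP19A1 hosted 1 circRNA, which was above 0 in sperm and at 0 in oocytes and embryos, and no circRNA came from 3 leukocyte markers.

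In sperm the members were abundant, and in embryos most were at the edge of detection. Together they made up 14.3% (95% Wilson interval 14.1 to 14.5%) and 14.0% (13.8 to 14.2%) of the circRNA counts of the sperm libraries. In PN embryos they made up 1.36% (1.22 to 1.52%), 1.03% (0.912 to 1.16%) and 0.779% (0.677 to 0.898%). These intervals and the limit above account for counting error alone, because reads of PCR products without molecular identifiers are not independent molecules. In embryos, 34, 31 and 37 members were above 0 in the 3 libraries, with a median of 1 count in each, against medians of 19, 20 and 5 counts for the other circRNAs above 0 in the same libraries. In sperm, 55 and 61 members were above 0, with medians of 355 and 236 counts against 134 and 124 for the other circRNAs.

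The highest count in any PN embryo library was 1 for 64 members and 2 for 10, so that 74 of 94 (78.7%) had at most 2 counts in any embryo library. All but circRNA1561 of SIL1, with 2 counts in each of 2 libraries, had 1 or 2 embryo counts in all. A single count has an exact 95% Poisson interval of 0.0253 to 5.57 and a pair of counts one of 0.242 to 7.22, and both intervals reach past the limit of 3 counts set for a circRNA listed at 0. At this depth a difference from 0 was, for members with 1 or 2 counts in all, at the margin of what could be detected. Another 8 members reached 3 to 9 counts and 12 reached 10 or more. As a comparison outside the rule, 731 circRNAs were found in PN embryos but in neither oocytes nor sperm. Of these, 168 (23.0%) had at most 2 counts in any embryo library, and their median highest count was 13, against 1 for the members. No member was above 0 in all 3 PN embryo libraries, 8 were in 2 libraries and 86 in a single one.

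**Figure D1:**
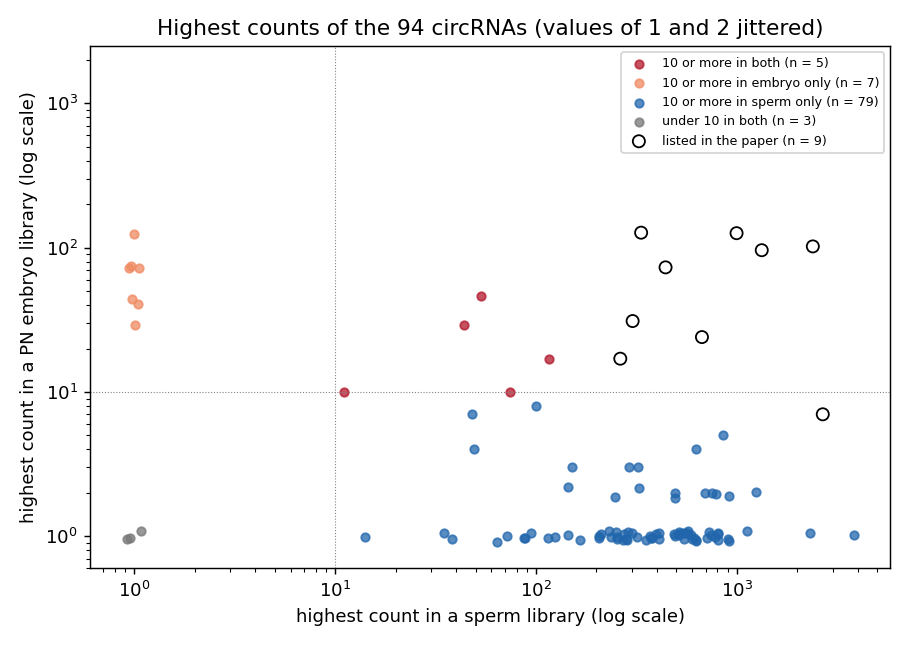
Highest count in a PN embryo library against the highest count in a sperm library, both on log scales, for the 94 members (filled, by class) and the 9 circRNAs of the paper's list that meet the same limits (open). Dotted lines mark 10 counts. Of the members, 79 lie at 10 or more counts in sperm only, 7 in embryos only, 5 in both and 3 in neither, while 8 of the 9 listed circRNAs lie at 10 or more in both.

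Split at 10 counts, the members fell into unequal classes. In 79 of 94 (84.0%) a sperm library had 10 or more counts and no embryo library did. Only 5 members reached 10 in both cell types, 7 reached 10 in embryos alone and 3 in neither. Of the 9 circRNAs of the paper's list, 8 reached 10 in both. Those 9 were picked partly for high levels in sperm and embryos, so this contrast follows from the choice and nothing is read from it.

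The 5 members at 10 or more counts in both came from genes of cytokinesis, centrosomes, membranes and RNA decay. VMP1, which encodes a membrane protein of the endoplasmic reticulum that acts in autophagosome formation, had 0, 46 and 0 counts of circRNA1884 in PN embryos and 53 and 0 in sperm. CIT encodes citron kinase, which acts in the last step of cytokinesis, and its circRNA1988 had 0, 17 and 0 counts in embryos and 116 and 0 in sperm. CEP63 encodes a centriole duplication factor, and circRNA1659 had 29, 1 and 0 counts in embryos and 0 and 44 in sperm. Each of these was seen in 1 sperm library only, and CEP63 alone was seen in more than 1 embryo library. SCAMP1, a secretory carrier membrane protein gene, had 0, 0 and 10 counts of circRNA2099 in embryos and 0 and 74 in sperm. DIS3L2, the gene of a 3′ to 5′ exoribonuclease, had 0, 0 and 10 counts of circRNA2239 in embryos and 0 and 11 in sperm. None of the 5 was present in all libraries of either group.

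The 7 members at 10 or more counts in embryos alone were each supported by a single count in a single sperm library. PSME3IP1, whose product binds the proteasome activator PSME3, gave the largest of them, with 0, 67 and 124 counts of circRNA1771 in embryos (63.7 ± 62.1, SD, n = 3) and 0 and 1 in sperm. KIF18A, a kinesin gene that acts in chromosome alignment on the mitotic spindle, gave a pair of them. CircRNA1553 had 8, 29 and 0 counts in embryos and circRNA1554 had 44, 0 and 0, and each had 0 and 1 in sperm. The others were seen in 1 embryo library each, namely circRNA1707 of DCAF17 (75 counts), a substrate receptor of CUL4 ubiquitin ligases, circRNA1912 of NR3C2 (72 counts), the mineralocorticoid receptor, circRNA1580 of ATP8B4 (72 counts), a putative phospholipid flippase, and circRNA1503 of CAPS2 (41 counts), a calcium-binding protein. These 7 share the lowest rank among sperm circRNAs, 953, with every other circRNA of 1 count in all.

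**Figure D2:**
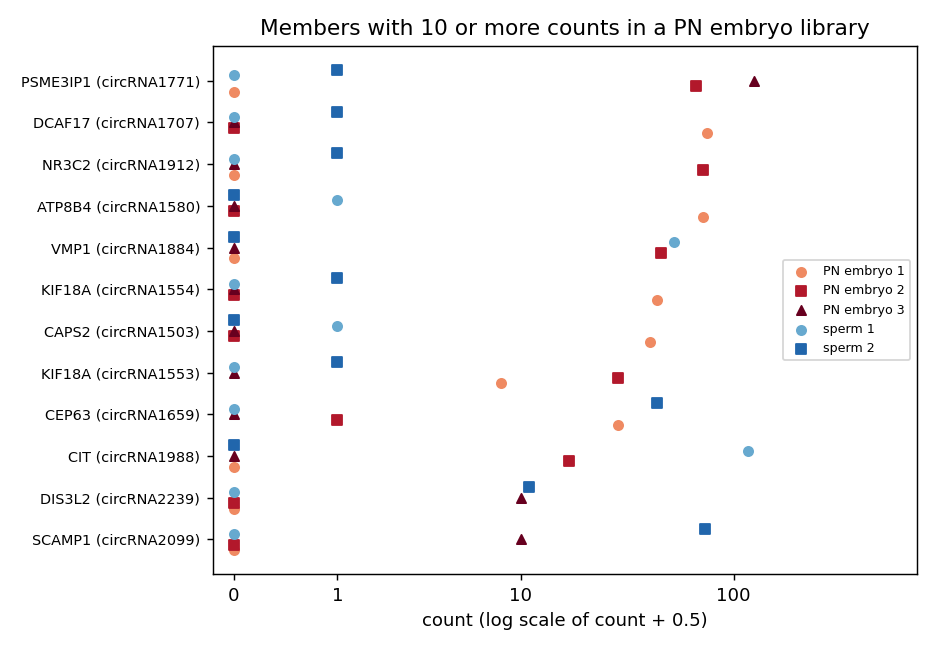
Counts of the 12 members with 10 or more counts in a PN embryo library, 1 row per circRNA, with a point for each PN embryo library and each distinct sperm library, on a log scale of the count plus an offset so that 0 can be drawn. In each row at least 1 embryo library is at 0, and 7 rows have a single count in a single sperm library.

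The 8 members found in 2 embryo libraries were circRNAs of PSME3IP1, KIF18A, CEP63, ENOX1, SIL1, SNTG1, ZPBP and NFAT5. ENOX1, a cell surface oxidase gene, had 4, 3 and 0 counts of circRNA1675 in embryos and 0 and 49 in sperm. SIL1, which encodes a nucleotide exchange factor of the endoplasmic reticulum chaperone BiP, had 2, 0 and 2 counts of circRNA1561 in embryos and 0 and 491 in sperm. ZPBP encodes the zona pellucida binding protein of the acrosome, and circRNA1636 had 1, 0 and 1 counts in embryos and 376 and 273 in sperm. Of the 8, ZPBP was the member also present in both distinct sperm libraries. SNTG1 (circRNA1523), the gene of a syntrophin scaffold protein, had 1, 1 and 0 counts in embryos and 915 and 0 in sperm. NFAT5 (circRNA1769), an osmotic stress transcription factor gene, had 0, 1 and 1 counts in embryos and 511 and 0 in sperm.

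Ranked by the mean count of the distinct sperm libraries, the members spread over almost the whole list of 1004 sperm circRNAs. Their median rank was 323, and 66 of them were at rank 502 or better, the middle of the list. There were 2 members in the first 10, 10 in the first 50, 20 in the first 100 and 35 in the first 200. The median of their mean sperm counts was 170.5, with a range of 0.5 to 2504.5, against 67 for the 910 sperm circRNAs that were not members.

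The highest member was circRNA2050 of TESK2, a protein kinase gene named for its expression in testis (chromosome 6, 165874176 to 166000002, Sscrofa11.1). It had 1166 and 3843 counts in sperm, ranks 13 and 3 within these libraries and rank 4 by the mean. In embryos it had 0, 0 and 1 counts. Next came circRNA2051 of ERI3, a gene of the 3′ to 5′ exoribonuclease family on the same chromosome (166957241 to 167082631). It had 1542 and 2311 counts in sperm, rank 8 by the mean, and also 0, 0 and 1 in embryos. Both of the most abundant members thus had a single count in a single embryo library.

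The following ranks held genes of endosomes, protein modification and transport. CircRNA2080 of TGFBRAP1 (chromosome 3, 49469898 to 49521879), an adaptor of TGF-β receptors and an endosomal tethering protein, had 851 and 708 counts in sperm (rank 20) and 0, 0 and 5 in embryos. CircRNA2085 of FBXO11, an F-box subunit of a ubiquitin ligase, had 0 and 1249 in sperm (rank 25) and 0, 0 and 2 in embryos. CircRNA1766 of POMT2, a protein O-mannosyltransferase, had 918 and 314 in sperm (rank 26) and 0, 2 and 0 in embryos. Of these 3, TGFBRAP1 was the closest between the sperm libraries. CircRNA1529 of ABCA4, a lipid transporter gene known from the retina, had 1119 and 0 in sperm (rank 30). CircRNA2061 of SLC25A3, the mitochondrial phosphate carrier (chromosome 5, 85284405 to 85292336), had 431 and 544 (rank 43). SNTG1 (rank 48) came next, followed by circRNA2030 of AKAP6, an anchoring protein of protein kinase A, with 0 and 906 counts (rank 50). In embryos ABCA4, SLC25A3 and AKAP6 had 1 count each in all.

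**Figure D3:**
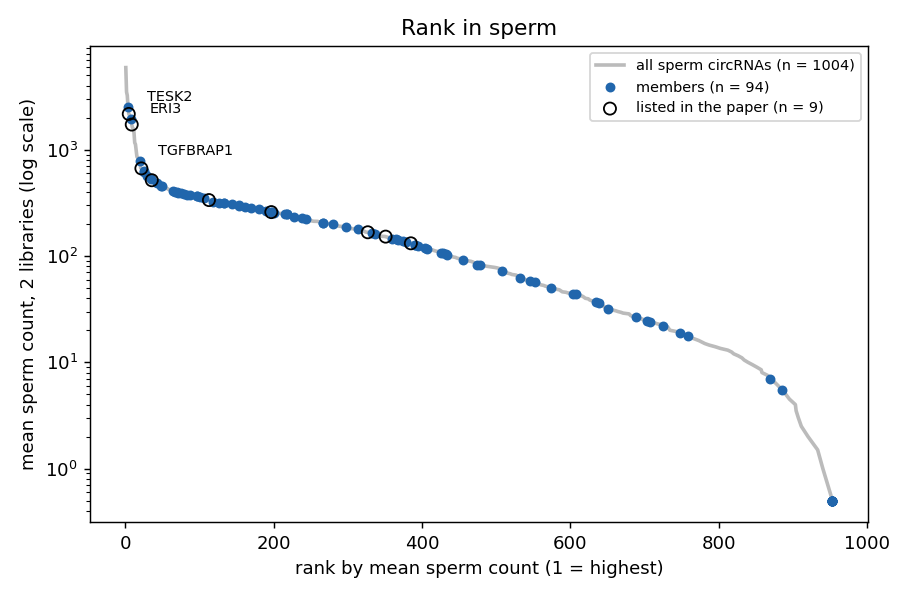
Mean count of the 2 distinct sperm libraries (log scale) against rank for all 1004 sperm circRNAs (line), with the 94 members (filled) and 9 circRNAs of the paper's list (open). TESK2 and ERI3 are at ranks 4 and 8, and the members reach down to rank 953, the rank shared by circRNAs with 1 count in all.

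The distinct sperm libraries often differed in which members they held. Of the 94 members, 22 (23.4%) were above 0 in both, 33 in library 1 alone and 39 in library 2 alone. For the 910 other sperm circRNAs the share in both was 104 (11.4%). Absence from a sperm library was not limited to members with low counts. Of 77 members with 50 or more counts in 1 sperm library, 55 (71.4%) were at 0 in the other. Of 621 other circRNAs with 50 or more, 526 (84.7%) were at 0 in the other library. Among the 22 members in both, 14 were within a ratio of 3 between libraries. The widest was circRNA1956 of DENND1B, an exchange factor for Rab GTPases, with 1 and 715. Ranks given by the mean therefore rest on 1 library for 72 members.

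**Figure D4:**
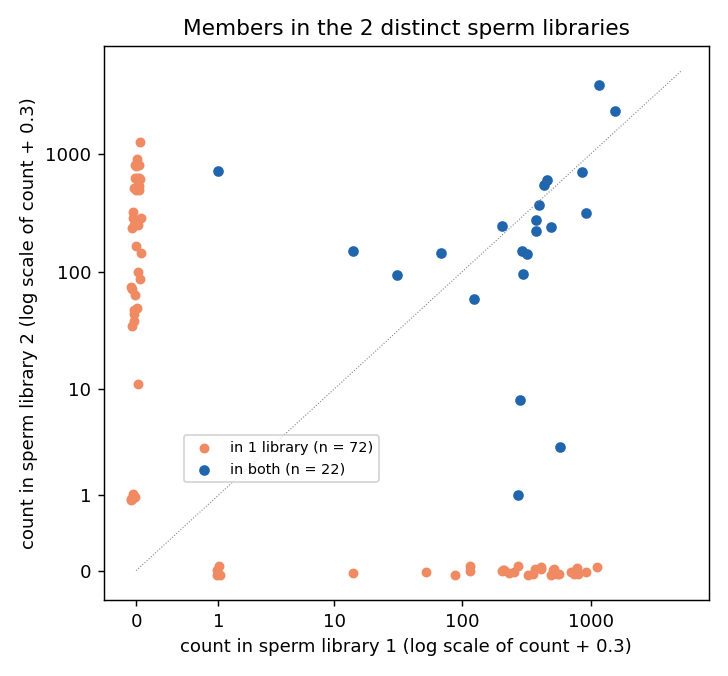
Count of each member in sperm library 1 against sperm library 2, on log scales of the count plus an offset so that 0 can be drawn, and the dotted line marks equal counts. The 72 members found in 1 library lie along the axes, and 22 were found in both.

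The host genes were grouped into 9 lists by role. Of all circRNAs counted, 3.06% were members, and of those above 0 in sperm 9.36%. The lists below held 3.90% to 10% of their circRNAs as members, and genes in no list 26 of 1956 (1.33%). These shares are descriptions, because the lists were written with the gene names and earlier results in view.

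Genes of sperm and cilium structure hosted 6 members among 95 circRNAs (6.32%). They were ZPBP, TEKT3, SPECC1, TXNRD3, CCDC171 and CAPS2. TEKT3 encodes a tektin, a filament protein of the sperm flagellum (chromosome 12, 58734289 to 58773400), and its circRNA2133 had 0 and 613 counts in sperm and 0, 0 and 1 in embryos. TXNRD3, a thioredoxin reductase gene with high expression in testis, had 282 and 8 counts of circRNA1656 in sperm. SPECC1 (circRNA2134), the gene of a coiled-coil protein, had 300 and 96. Of these 6, ZPBP, SPECC1 and TXNRD3 were in both sperm libraries, and only CAPS2 reached 10 counts in an embryo library. Meiosis and genome maintenance genes hosted 3 members among 77 circRNAs (3.90%), all in 1 sperm library. They were circRNA2073 of STAG3, a meiotic cohesin subunit (0 and 491), circRNA1749 of POT1, a telomere end-binding protein (355 and 0), and circRNA1927 of FANCD2, a central protein of interstrand crosslink repair (272 and 0).

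Centrosome and cell division genes hosted 4 members among 78 circRNAs (5.13%), namely CIT, CEP63 and the KIF18A pair. All 4 had 10 or more counts in an embryo library, and their mean sperm counts were low, with a median of 11.25 and a maximum of 58.

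Chromatin and transcription genes hosted 13 members among 208 circRNAs (6.25%), with a median mean sperm count of 221. The highest were circRNA1760 of BAZ1A, a subunit of ISWI chromatin remodelling complexes (749 and 0 counts in sperm), circRNA2129 of the Mediator kinase module gene MED13 (698 and 0) and circRNA1827 of the histone acetyltransferase gene CREBBP (0 and 630). Of the 13, only MLLT10 and HMGXB3 were in both sperm libraries, with 291 and 151 counts of circRNA1691 and 322 and 143 of circRNA2103. RNA processing and decay genes hosted 8 members among 126 circRNAs (6.35%). Besides ERI3 these included circRNA2042 of SNRNP40, a U5 spliceosomal protein (729 and 0), and circRNA1609 of the splicing regulator gene PTBP3 (0 and 624). PTBP3 also had 4, 0 and 0 counts in embryos.

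Kinase and phosphatase genes hosted 8 members among 124 circRNAs (6.45%), led by TESK2 and AKAP6. The next were circRNA1902 of SRPK2, a kinase of SR splicing proteins (572 and 3), and circRNA2141 of the salt-inducible kinase gene SIK3 (567 and 0). Ubiquitin and protein turnover genes hosted 6 members among 130 circRNAs (4.62%), led by FBXO11 and by circRNA1832 of RMND5A, a subunit of the CTLH ubiquitin ligase (551 and 0). GTPase and membrane trafficking genes hosted 12 members among 227 circRNAs (5.29%), with a median mean sperm count of 279, and 5 of the 12 were in both sperm libraries. After TGFBRAP1 the highest were circRNA1843 of the GTPase gene GPN1 (0 and 807) and circRNA2224 of the nuclear transport receptor gene RANBP17 (775 and 0).

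Transporter, channel and membrane receptor genes hosted 10 members among 100 circRNAs (10%), the largest share of the 9 lists, and 19.6% of the circRNAs of this list above 0 in sperm. Their median mean sperm count was 330.75. After ABCA4 and SLC25A3 the highest were circRNA2132 of ASGR2, a subunit of the asialoglycoprotein receptor (0 and 790), and circRNA1968 of SERINC3, a multipass membrane protein (746 and 0). Just 1 member, ciRNA24 of TC2N, bore the ciRNA prefix, which stands for an intronic circle, among 46 in the table. It had 0 and 624 counts in sperm and 0, 1 and 0 in embryos.

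The host genes lay on most chromosomes and were close in length to the other hosts. For 79 of the 92 host genes a location was found in RefSeq (Sscrofa11.1), on 19 chromosomes, 1 host being on X. The median host length was 100344 bp, against 101328 bp for 1564 hosts of the whole table. The deposited counts come without back-splice positions, so the exons within each circle are not given here.

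To set the screen against its mirror image, it was repeated with embryos and oocytes exchanged, which finds circRNAs at 0 in PN embryos and above 0 in MII oocytes and sperm. That gave 58 circRNAs. No listed circRNAs were taken out of that set, so it is set beside the 94 members and the 9 circRNAs of the paper's list together, 103 in all. The highest oocyte count was 1 or 2 in 36 of 58 (62.1%), and the highest embryo count in 74 of 103 (71.8%), all 74 of them members. In the exchanged set 11 of 58 reached 10 counts in both cell types, against 13 of 103, of which 5 were members. The share in both sperm libraries was 10 of 58 (17.2%) and 27 of 103 (26.2%). DENND1B, FANCD2 and DIS3L2 were hosts in both sets. For FANCD2 the mirror circRNA376 had 1, 0 and 0 counts in oocytes and 0 and 524 in sperm.

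The 103 were also divided by their highest sperm count, as a description of the counts that the rule used. Of all sperm circRNAs at 0 in oocytes, those found in embryos made up 10 of 92 (10.9%) at a highest sperm count under 10, 14 of 292 (4.79%) from 10 to under 100, 24 of 200 (12%) from 100 to under 300 and 48 of 269 (17.8%) from 300 to under 1000. The members among these numbered 10, 14, 23 and 43. With the groups exchanged the shares were 6 of 88 (6.82%), 12 of 290 (4.14%), 15 of 191 (7.85%) and 24 of 245 (9.80%). In both screens the class from 10 to under 100 had the lowest share and the shares of the next classes were larger. At 1000 counts or more they were 7 of 11, of which 4 were members, and 1 of 5, too few for a reading. Of the 43 members from 300 to under 1000, 40 had at most 2 counts in any embryo library. The circRNAs share the same few libraries and are not replicates, so the difference between the screens was not tested.

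**Figure D5:**
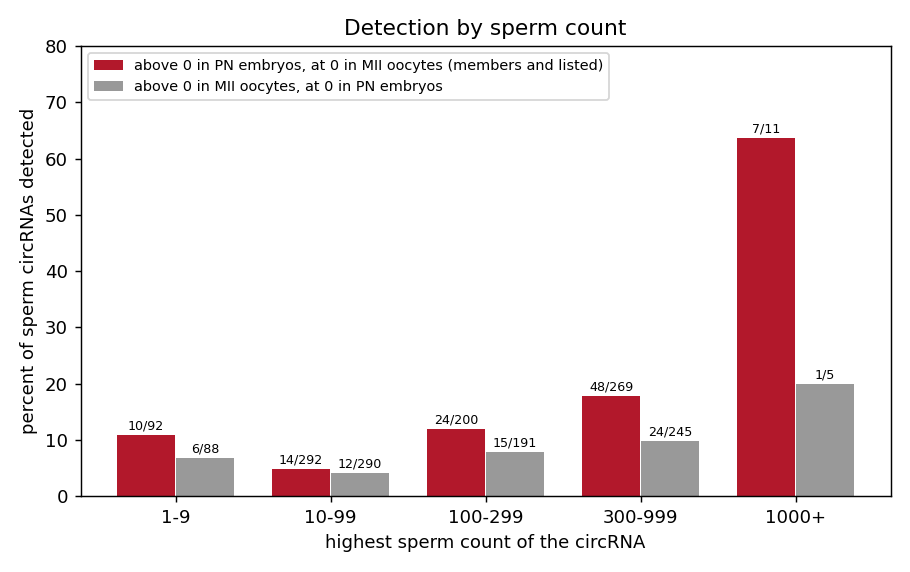
Percent of sperm circRNAs found in PN embryos among those at 0 in MII oocytes (the 94 members and 9 listed circRNAs) and found in MII oocytes among those at 0 in PN embryos, by the highest sperm count, with the numbers behind each bar. From the class of 10 to under 100 to that of 300 to under 1000 counts the share goes from 4.79% to 17.8% in embryos and from 4.14% to 9.80% in oocytes.

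The limit of 0 counts in oocytes also decided membership closely. A further 13 circRNAs had a single count in all in MII oocytes and were above 0 in embryos and sperm. The 3 with the largest product of mean sperm and mean embryo count are given. CircRNA199 of WDR27, a WD repeat protein gene, had 1, 0 and 0 counts in oocytes, 5, 0 and 0 in embryos and 6309 and 5518 in sperm, more than any member. CircRNA1330 of RRP1, a ribosome biogenesis gene, had 0, 0 and 1 in oocytes, 1, 0 and 0 in embryos and 2059 and 2161 in sperm. CircRNA1353 of the histone demethylase gene KDM5B had 0, 0 and 1, then 0, 0 and 3, and 769 and 442. Just inside the limits lay TOP2A, PROS1 and ENSSSCG00000027349, each with 1 embryo count and 1 sperm count in all.

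Some host genes gave other circRNAs, and these were not confined to sperm. Of the 92 hosts, 47 (51.1%) had 1 or more further circRNAs that were counted, 86 in all, against 36.4% of all 1727 hosts with 2 or more circRNAs. A host with more circRNAs had more chances to hold a member, so nothing is read from the larger share. Of the 86, 45 (52.3%) were above 0 in MII oocytes, 31 (36.0%) in PN embryos and the same number in sperm. For circRNAs of hosts without a member the shares were 49.5%, 40.9% and 30.4%. In all, 28 hosts of members had another circRNA present in oocytes, so for these genes the oocyte held a circle of the same gene while the member was at 0.

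DENND1B, which regulates Rab GTPases in endocytosis, had 7 circRNAs, the most of any member's host. Its members circRNA1956 and circRNA1955 had 1 count each in PN embryo library 2 and 1 and 715, and 0 and 64, in sperm. Its circRNA930, with 0, 85 and 1 counts in oocytes, 0, 109 and 0 in embryos and 986 and 2175 in sperm, was present in all 3 cell types. ERI3 resembled it, since circRNA63 had 33, 0 and 1 counts in oocytes, 0, 0 and 101 in embryos and 2377 and 4081 in sperm, more in sperm than the member circRNA2051. CEP63 had circRNA379 with 18, 0 and 4 counts in oocytes, 129, 65 and 181 in embryos and 0 and 49 in sperm. SCAMP1 and CIT differed from these, because their other circRNAs were found in oocytes or embryos and not in sperm, such as circRNA185 of SCAMP1 (90, 1 and 29 counts in oocytes, 3, 52 and 65 in embryos) and circRNA528 of CIT (128, 0 and 4, then 0, 49 and 12). DYRK1A, a kinase gene, was the opposite case, with 8 counts of its member circRNA1941 in PN embryo library 2, 0 and 100 in sperm, and 3 further circRNAs seen in sperm alone.

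Sperm and PN embryo counts were compared with edgeR's quasi-likelihood test over 143 circRNAs above 0 in at least 3 of the 5 distinct libraries. Only 29 members could be tested, and the rule requires both groups to be above 0, so nothing about the members is read from this fit. Of all circRNAs tested, 0.699% were called higher and 37.1% lower in sperm by a Benjamini-Hochberg adjusted p under 0.05 together with a log2 fold change of 1 or more in size. Of the members, 0 were called higher and 1 lower, and 4 of 29 had an unadjusted p under 0.05, against 66 of all 143. The called member was PSME3IP1, for which sperm had 1 count in all. DESeq2 also called it, while the call was lost with total-count scaling, with no filter, with all 3 groups in 1 fit, with all 3 sperm columns as separate samples, under the replicate block and on leaving out PN embryo replicate 1 or sperm replicate 1. With counts scaled to the total circRNA count instead, 10.5% of all circRNAs and 5 of 29 members were called higher, and nothing is read from that count either. The median log2 fold change of all tested circRNAs moved from -3.12 to -0.91 between the scalings.

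Linear transcripts of the host genes were a measurement that the rule did not use. The mRNA table gives no gene symbols, but the lncRNA table lists transcripts of the same assembled loci with their gene names, and 271 loci of 64 host genes were paired in this way. TESK2 was not among these genes. In edgeR's test of sperm (n = 3) against PN embryos (n = 3), 40 loci of 26 host genes could be tested. Of these 40, 23 were called lower in sperm and 5 higher, while 52% of all 17980 loci were called lower and 8.32% higher. The counts of the host genes are read against that background, in which most loci were lower in sperm. Total mRNA counts ran from 91924597 to 94137406 in PN embryos and from 25745522 to 26494348 in sperm.

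The 5 host loci called higher in sperm belonged to GPHN, SNTG1, BAZ1A, SLC25A3 and MLLT10. GPHN encodes gephyrin, a scaffold of inhibitory synapses that also acts in molybdenum cofactor synthesis. Its locus had 386, 3225 and 1839 counts in sperm and 0 in each embryo library, so it passed the expression filter through sperm alone. SNTG1 had 2642, 3891 and 3679 counts in sperm and 8, 0 and 0 in embryos (log2 fold change 12.18 ± 2.29, SE, adjusted p = 0.00620, edgeR), without overlap. It also passed the expression filter through sperm alone. SE for host loci is the size of the log2 fold change divided by the square root of the test's F statistic, and is approximate. MLLT10, a cofactor of histone H3 lysine 79 methylation, had 2199, 9014 and 1730 counts in sperm and 996, 745 and 1359 in embryos (4.03 ± 0.90, adjusted p = 0.0103, edgeR, after scaling for the smaller sperm totals). SLC25A3 had 5749, 1528 and 2448 in sperm and 1198, 222 and 97 in embryos (4.66 ± 1.29, adjusted p = 0.0196, edgeR), and BAZ1A 1604, 279 and 2262 against 79, 0 and 7 (7.56 ± 2.54, adjusted p = 0.0396, edgeR). The BAZ1A call was lost on leaving out PN embryo replicate 2 or 3 or any 1 sperm library (adjusted p = 0.0596 to 0.138, edgeR). The SLC25A3 call was lost without PN embryo replicate 2 (adjusted p = 0.0770, edgeR), PN embryo replicate 3 (0.0546) or sperm replicate 1 (0.0719). The other 3 calls held on leaving out any 1 library. With the replicate number as a block, GPHN and SNTG1 stayed called (adjusted p = 0.0257 and 0.00430, edgeR). The calls of MLLT10, SLC25A3 and BAZ1A were lost under that block (adjusted p = 0.0885, 0.0740 and 0.0885, edgeR). The log2 fold change of MLLT10 was 2.58 without sperm replicate 2, the library with 9014 counts. That of SNTG1 rests on the 8 counts of PN embryo replicate 1, without which the embryo libraries are all at 0.

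Of the 11 hosts of members with 10 or more embryo counts, 6 had a locus that could be tested. CIT, CAPS2, NR3C2, DIS3L2 and ATP8B4 were called lower in sperm at each of their tested loci. These loci had at most 4 counts in any sperm library, so they passed the expression filter only through the embryo libraries. Their direction was thereby fixed, and nothing is read from it. All 3 tested loci of CIT had 0 counts in every sperm library, with 184, 16 and 1145 counts in embryos at the first of them, a locus that was no longer called without any 1 sperm library (adjusted p = 0.0670 to 0.0678, edgeR). CAPS2 had 850, 549 and 836 counts in embryos and 0 in each sperm library, and the 3 loci of NR3C2 had at most 4 counts in a sperm library, with 1587, 1554 and 1023 in embryos at the first, which was called in every leave-out, while the other 2 and a further CIT locus lost their call without some sperm library (adjusted p = 0.0503 to 0.0634, edgeR). The DIS3L2 locus had 789, 1145 and 1156 counts in embryos and 0, 3 and 0 in sperm. The VMP1 locus was not called, with 26716, 22847 and 18164 counts in embryos and 3197, 2627 and 7079 in sperm (log2 fold change -0.41 ± 0.50, SE, adjusted p = 0.530, edgeR). Without sperm replicate 3, the library with 7079 counts, the VMP1 value was -1.17 (adjusted p = 0.0558, edgeR). Leaving out any other library gave -0.64 to -0.38. The loci that could be tested are only part of a host gene. For NR3C2 the coverage summed over 7 transcripts in the lncRNA table was 496, 864 and 0 in sperm and 426, 356 and 284 in PN embryos, so that 2 sperm libraries lay above every embryo library there. For ATP8B4 it was 915, 1 and 0.61 in sperm and 76.3, 108 and 192 in PN embryos, with sperm replicate 1 above every embryo library. For CIT and DIS3L2 every sperm library lay below every embryo library. CAPS2 had 0 in each sperm library and 0, 0 and 42.0 in PN embryos.

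In the lncRNA table, which gives the read depth along each transcript, 277 transcripts carried the names of 64 host genes. Their summed coverage was above 0 in all 3 sperm libraries for 14 of these genes (21.9%), against 10.04% of all 9962 named genes, and in all 3 MII oocyte libraries for 24 (37.5%, against 39.1%). Counted by single transcript, 4 of the 277 (1.44%) were above 0 in all 3 sperm libraries, against 1.28% of all named transcripts. The larger gap was thus seen only for coverage summed by gene. All 9962 named genes had 32965 transcripts, fewer per gene than the host genes, and a sum over more transcripts is more often above 0. In 8 host genes every sperm library lay above every oocyte and embryo library, and in 9 every sperm library lay below them, while for all named genes these shares were 4.12% and 17.3%. Highest in sperm was DYRK1A, with 1, 1627 and 2417 units of coverage, 4.14, 41.9 and 4 in PN embryos and 2.67, 0 and 5.87 in MII oocytes. SNTG1 had 886, 840 and 121 in sperm and 0 in every other library, and CREBBP had 1583, 472 and 481 in sperm, 0, 1.96 and 22.3 in embryos and 0, 0 and 49.0 in oocytes. Coverage of single transcripts also varied between the sperm libraries, as in CEP63, which had 0, 707 and 0. These coverage values are listed without a test.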

How the data were processed

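MII oocyte, PN embryo and sperm libraries were depleted of ribosomal RNA and stranded. The submitters' processing notes name cutadapt 1.9, HISAT2 2.0.4, TopHat2 2.0.4, StringTie 1.3.4d, edgeR and the build Sscrofa11.1. The circRNA caller is not given in the sources used here. The authors deposited circRNA and mRNA tables of counts per circRNA or assembled locus, and an lncRNA table of coverage (read depth) per transcript. The mRNA totals of every oocyte and PN embryo library were above the valid reads listed in the paper's supplement. The mRNA counts therefore need not be plain read counts, and the p-values of host loci carry that limit.

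Members and gene lists were chosen with earlier results of these data known. Sperm circRNA columns 1 and 3 were identical and were used once. Ranks used the mean of the distinct sperm libraries. CircRNAs above 0 in at least 3 libraries, and mRNA loci kept by edgeR's default expression filter, were tested with edgeR 4.0.16 (trimmed-mean scaling, quasi-likelihood, Benjamini-Hochberg adjustment), after a test on simulated data, with calls at an adjusted p under 0.05 and a log2 fold change of 1 or more in size. DESeq2 1.42.0, other scalings, filters and count limits, all 3 groups together, a replicate block and leaving out libraries were alternatives. Those for host loci were chosen after seeing the data. Loci took gene names from locus identifiers shared by the mRNA and lncRNA tables. At 19997 loci with 1 listed transcript, 98.2% had a count-to-coverage ratio that was constant between libraries (SD of its log2 under 0.1).

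Members named were those with 10 or more counts in an embryo library, those in 2 embryo libraries, the 10 highest in sperm, the leading members of each list, hosts with 2 members, ciRNAs and the 3 circRNAs with a single oocyte count and the largest product of sperm and embryo means. The examples of other circRNAs of the hosts, of host loci and of coverage were chosen after their values were seen. A few members that these rules name are not reported here. Host coordinates are from RefSeq. No sequence was printed, because the files used here hold none for these circRNAs.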

Additional observations from a re-analysis of the deposited data

How the results depend on the processing

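The number of members depended on the count limits. It was 94, and 30 with at least 2 counts in a PN embryo library, 12 with at least 10, 8 with at least 2 embryo libraries and 22 with both distinct sperm libraries. Leaving out 1 library gave 55 to 118, with 61 without PN embryo replicate 3, 61 without sperm replicate 1 and 55 without sperm replicate 2. The share with at most 2 counts in any embryo library stayed between 73.5% and 85.5% in these leave-outs.

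The 54 circRNA calls between sperm and PN embryos (1 higher and 53 lower in sperm, of 143 tested) were 44 with total-count scaling (15 higher and 29 lower), 79 by DESeq2 (17 higher and 62 lower), 8 with no filter, 24 with all 3 groups in 1 fit, 109 with all 3 sperm columns as separate samples and 0 to 31 on leaving out a library (0 without any 1 PN embryo library). In place of 1 member, 5 were called with total-count scaling, 8 by DESeq2, 0 with no filter, 2 with all 3 groups, 9 with all 3 sperm columns and 0 to 0 on leaving out a library. Where an embryo or sperm library was left out the fit had fewer samples, and the cause of the other changes was not tested.

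Same-numbered embryo and sperm libraries did not deviate together (correlations of -0.00514 to 0.0105 for mRNA and -0.0670 to 0.00218 for circRNAs), so the numbers were not taken to pair them. With the replicate number as a block 0 circRNAs were called, of which 0 were members (4 circRNAs had an unadjusted p under 0.05). Under the same block 2 host loci were called in place of 28, 2 higher and 0 lower in sperm. Host loci called were 32 by DESeq2 (9 higher and 23 lower) and 28 with total-count scaling (5 higher and 23 lower). On leaving out a library they were 21 to 31 (3 to 7 higher and 16 to 26 lower). The low circRNA totals of oocytes and embryos limit what a count of 0 shows there.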
